A study of Mus musculus with 6 samples.

Results

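A set of 10 genes that mark the vessel wall and the supporting tissue of bone marrow was followed in sorted blood stem cells. The endothelial genes were Cdh5, Kdr, Plvap and Stab2, and the stromal genes were Lepr, Col1a1, Col1a2, Sparc, Vcam1 and Gja1. They were chosen by gene symbol from a table of 50763 symbols, and all 10 were found. A filter on low counts kept 8 of them among 19313 tested genes and left out Cdh5 and Stab2.

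RNA came from bone marrow CD34- KSL cells, a gate for cells with c-Kit and Sca-1 but no lineage markers and no surface CD34, in which haematopoietic stem cells are enriched. All mice carried Tal1-tTA, a doxycycline-repressed activator driven by regulatory sequence of the blood stem cell gene Tal1, together with its target transgene TRE-EGFR-tr (genotype Tal1-tTA+/TRE-EGFR-tr+). The EGFR-WT group (n = 3) drank doxycycline at 0.2 g/L, which keeps the transgene off and leaves the wild-type epidermal growth factor receptor alone. The EGFR-DN group (n = 3) had no doxycycline and made, beside that receptor, a form without the cytoplasmic kinase domain. The drug and the truncated receptor therefore cannot be told apart, and the sources used here give neither the age of the mice nor whether animals were pooled. The sources do not name separate animals for the replicates. The p-values weigh the difference between groups against only the spread of these libraries within a group, and that spread may be technical.

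Marrow stem cells lie beside sinusoids lined by endothelial cells and within a net of perivascular stromal cells that carry the leptin receptor and secrete CXCL12 and stem cell factor. VE-cadherin (Cdh5) holds endothelial cells together, and fibrillar collagen and SPARC are matrix products of stromal cells and osteoblasts. Some genes of vessels are also made by blood stem cells, which share an origin with endothelium, so a transcript found after sorting can come from the stem cells or from a few niche cells carried along. In bulk RNA, fewer cells of a type and less RNA per cell cannot be told apart.

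Total counts per library ranged from 24073133 to 36032428, and 3 counts corresponded to between 0.0799 and 0.152 CPM. CPM are counts per 1000000 counts of a library, with library sizes scaled by TMM, edgeR's trimmed mean method. Egfr was counted 6 times in every EGFR-WT library and 991 to 4758 times in EGFR-DN. It was the 1 gene of 19313 past the threshold (edgeR quasi-likelihood test, Benjamini-Hochberg adjusted p = 0.00981). EGFR-DN replicate 3 stood apart, with 25.4% of its counts in 8 rRNA-like genes against 4.71% to 6.15% in the other libraries, and 38.1% of all tested genes were highest there. Of the gate genes, Kit was at 771 to 806 CPM in EGFR-WT and at 736, 806 and 1962 CPM in EGFR-DN replicates 1 to 3, and Ly6a, which encodes Sca-1, averaged 65.0 and 59.9. Cd34 transcript was present too, at 378 ± 51.8 CPM in EGFR-WT and 494 ± 101 in EGFR-DN (SD, n = 3 each).

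The 2 genes that the results below turn on, Gja1 and Col1a2, had an entry in the RefSeq promoter table of build GRCm38.p6, as did 6 of the 10 genes in all. The windows shown lie upstream of the earliest start in RefSeq and in the GENCODE basic set. They are given because these genes had the highest levels per kb and were the 2 called when 1 library was left out. The Gja1 window is chr10:56377050-56377299 on the plus strand and the Col1a2 window, shortened by an earlier GENCODE start, is chr6:4505368-4505492 on the plus strand. Capitals mark matches on either strand to TGANTCA (the AP-1 core), GATAA (the GATA core) or GGGCGG (the GC box).
Gja1: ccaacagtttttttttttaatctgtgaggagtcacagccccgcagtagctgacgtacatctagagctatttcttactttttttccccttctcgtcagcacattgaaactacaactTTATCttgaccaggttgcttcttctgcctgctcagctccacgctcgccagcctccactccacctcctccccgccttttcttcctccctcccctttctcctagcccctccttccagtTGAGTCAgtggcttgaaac
Col1a2: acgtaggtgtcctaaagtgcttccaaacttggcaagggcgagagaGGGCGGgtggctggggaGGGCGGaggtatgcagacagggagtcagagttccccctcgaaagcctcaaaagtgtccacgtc
The Gja1 window held 1 match to TGANTCA and 1 to GATAA, found in 6.75% and 22.6% of 32851 promoter windows of the same 250 bases. The Col1a2 window held 2 matches to GGGCGG, found in 13.4% of windows of its 125 bases. CCAAT and CCGGAA (an ETS core) were searched as well and are not in these letters, and no searched motif was in both windows. A match is a description of the letters only.

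Levels of the 10 genes spanned a wide range. Gja1, Col1a2, Kdr and Plvap each had at least 60 counts in every library, whereas Vcam1, Lepr, Sparc, Col1a1, Stab2 and Cdh5 each had at most 86 in any library. Scaled to the length of the longest coding transcript, the order by mean over 6 libraries was Gja1 (6.25 ± 1.78 CPM per kb, SD), Col1a2 (2.18 ± 0.689), Plvap (1.64 ± 0.669), Kdr (1.33 ± 0.326), Vcam1 (0.411 ± 0.221), Sparc (0.224 ± 0.106), Lepr (0.109 ± 0.0847), Col1a1 (0.0624 ± 0.0480), Stab2 (0.0363 ± 0.0370) and Cdh5 (0.0324 ± 0.0481). Neighbours in this order were separated by range only at 2 places. Gja1 ranged from 3.86 to 8.09 CPM per kb and Col1a2 from 1.28 to 2.74, and Kdr lay at or above 1.07 while Vcam1 reached at most 0.723. All other neighbours overlapped between libraries.

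**Figure D1:**
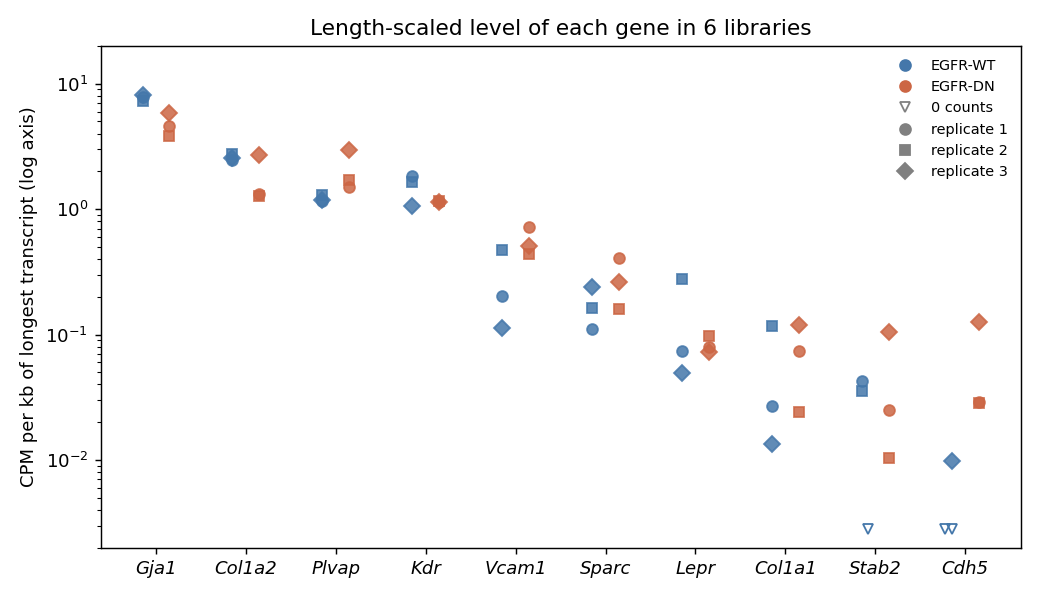
CPM per kb of the longest coding transcript (log axis) for each of the 10 genes, with 1 point per library (blue, EGFR-WT; red, EGFR-DN), symbols for replicates and open triangles for libraries with 0 counts. Gja1 is highest, at 3.86 to 8.09, and the points of Kdr, at or above 1.07, lie clear of those of Vcam1, at or below 0.723.

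In the comparison of EGFR-DN with EGFR-WT, 0 of the 8 tested genes passed an adjusted p of 0.05 by edgeR, where 0.00518% of all tested genes did. At an unadjusted p under 0.05, 1 was lower (Gja1) and 0 were higher, against 2.40% and 4.30% of all tested genes. DESeq2 called 0 of the 10 genes, where 0.119% of all genes were lower and 0.319% higher, and limma-voom called 0 of 8. At an unadjusted p under 0.05, DESeq2 had 3 of the 10, against 5.93% of all genes, and limma-voom 2 of the 8, against 6.15%. Of the 8 tested, 4 had a log2 fold change above 0 and 4 below, with a median of −0.02 beside 0.01 over all tested genes. Without EGFR-DN replicate 3 that median was −0.29, beside −0.01 over all. Groups did not overlap for Gja1, lower in EGFR-DN, and for Plvap, higher, while 8.72% of all tested genes did not overlap in the lower and 9.21% in the higher direction. With library size alone as scaling these shares were 11.8% and 6.51%, Col1a2 joined Gja1, and the median of all genes moved by over 0.1, to −0.10.

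**Figure D2:**
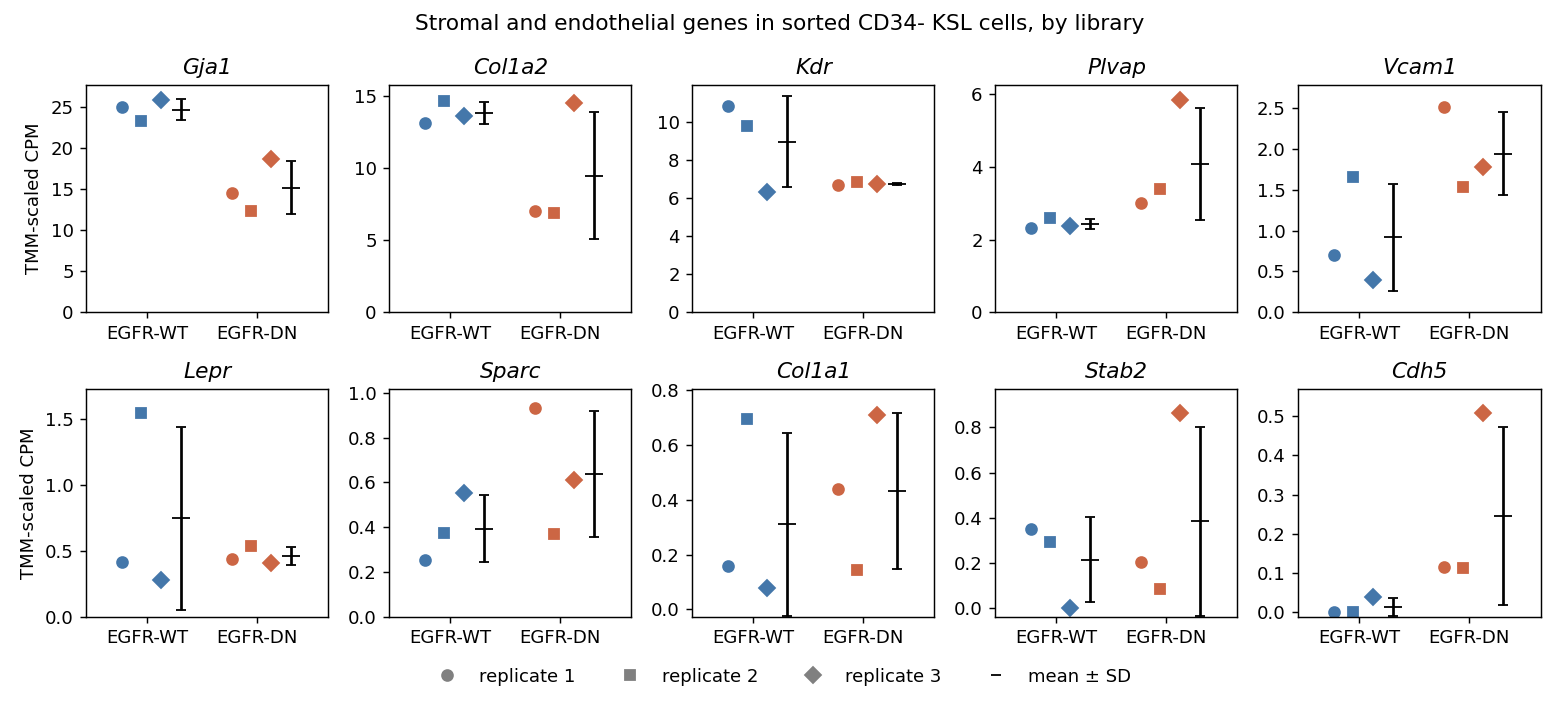
TMM-scaled CPM of each gene in each library, with symbols for replicates 1 to 3 and bars for mean ± SD (n = 3 per group). The axis differs between genes and each includes 0. Gja1 is lower in all 3 EGFR-DN libraries, whereas Col1a2 is lower in replicates 1 and 2 but not in replicate 3.

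Gja1 encodes connexin 43, the channel protein of gap junctions, which is made by marrow stroma and by blood stem cells. It was at 25.003, 23.2 and 25.8 CPM in EGFR-WT replicates 1 to 3 and at 14.6, 12.3 and 18.6 CPM in EGFR-DN replicates 1 to 3. Every EGFR-DN library thus lay below every EGFR-WT library, and the means were 15.1 ± 3.21 and 24.7 ± 1.31 CPM. The log2 fold change was −0.70 (SE 0.19, edgeR unadjusted p = 0.00735, adjusted p = 0.690), so the difference did not pass over all genes. Without EGFR-DN replicate 3, the rRNA-rich library, it was −0.88 (SE 0.12) and passed (edgeR adjusted p = 0.0447). In 15 alternatives its adjusted p lay between 8.55e-08 and 0.912, and the sign was the same in all of them.

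Among other connexins, Gja4, an endothelial connexin, had 0 to 7 counts per library, Gja5, a connexin of arterial endothelium, had 0 to 14, and Gjb1 and Gja3 had 0 in all 6.

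Col1a2 encodes the alpha-2 chain of type I collagen, the main fibre of bone and stroma, and Col1a1 encodes the alpha-1 chain that normally assembles with it. Col1a2 was at 13.2, 14.6 and 13.6 CPM in the EGFR-WT libraries and at 7.03, 6.86 and 14.6 CPM in EGFR-DN replicates 1 to 3. Replicates 1 and 2 of EGFR-DN were below every EGFR-WT library, and replicate 3 was among them. It differed by −0.55 on the log2 scale (SE 0.32, edgeR adjusted p = 0.690). Without EGFR-DN replicate 3 it was −0.995 (SE 0.13) and passed (adjusted p = 0.0455), and in 15 alternatives its adjusted p lay between 2.37e-07 and 0.912. Col1a2 and Gja1 were the 2 of 10 called in that fit, in which 0.0552% of all genes were called lower and 0.231% higher. DESeq2 without the same library also called these 2, where 2.07% of all genes were lower and 2.61% higher.

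Col1a1 did not follow Col1a2. It had 5, 26 and 2 counts in EGFR-WT replicates 1 to 3, and EGFR-DN replicates 1 to 3 had 15, 5 and 14. In CPM, EGFR-DN replicate 3 (0.710) and EGFR-WT replicate 2 (0.693) were the highest, and the groups overlapped. The counts of Col1a2 exceeded those of Col1a1 between 16.1-fold and 173-fold within a library, although their longest transcripts are of similar length (5348 and 5930 bases). For Col1a1 the log2 fold change was 0.37 (SE 0.89, edgeR adjusted p = 0.866), and it turned to −0.17 without EGFR-DN replicate 3 and to −0.05 without EGFR-WT replicate 3. It was 1.75 without EGFR-WT replicate 2, the library with most counts of the gene.

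Of 15 other genes of the fibrillar matrix, 6 could be tested with 0 past the threshold by edgeR or DESeq2 and 0 at an unadjusted edgeR p under 0.05. Col3a1, the chain of type III collagen that accompanies type I in most connective tissue, had 0 to 8 counts per library, and the small proteoglycan gene Lum had 0 to 3. Bgn, the biglycan gene, was at 15.8 ± 0.925 CPM in EGFR-WT and 23.7 ± 11.2 in EGFR-DN. Of 11 genes for the folding and modification of collagen, all 11 were tested and 0 passed by edgeR, at an adjusted or unadjusted p, or by DESeq2, with a median log2 fold change of −0.19. P4hb, a subunit of prolyl 4-hydroxylase and a general protein disulfide isomerase, was at 326 ± 8.88 against 315 ± 124 CPM. Serpinh1, the collagen chaperone, was at 4.95 ± 1.58 against 3.61 ± 1.81 CPM.

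**Figure D3:**
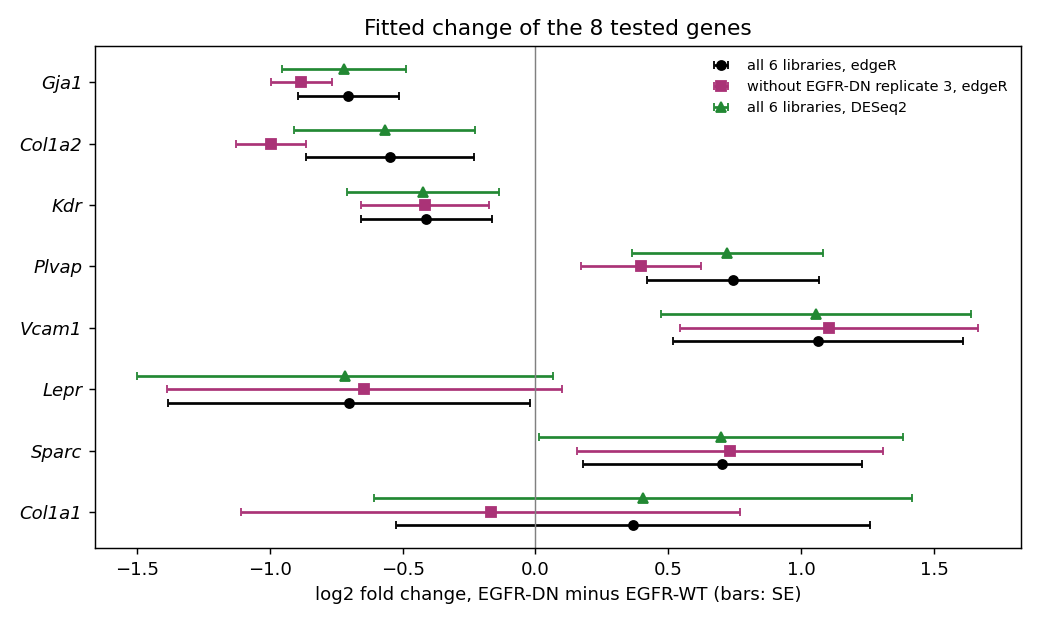
Log2 fold change of EGFR-DN against EGFR-WT (points) with its SE (bars) for the 8 tested genes, by edgeR on all 6 libraries, by edgeR without EGFR-DN replicate 3, and by DESeq2 on all 6 libraries. Leaving out that replicate moves Col1a2 from −0.55 to −0.995 and Plvap from 0.74 to 0.40.

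Kdr encodes VEGF receptor 2, the main signalling receptor for vascular endothelial growth factor. It was at 10.8, 9.81 and 6.31 CPM in EGFR-WT and at 6.71, 6.84 and 6.74 CPM in EGFR-DN replicates 1 to 3. EGFR-WT replicate 3 was the lowest of all 6, so the groups overlapped. The fitted log2 difference was −0.41 (SE 0.25, edgeR adjusted p = 0.690). It was −0.27 without EGFR-WT replicate 1 and −0.61 without EGFR-WT replicate 3.

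The sister receptors of Kdr were scarce. Flt1 (VEGF receptor 1) had 5 to 22 counts per library and Flt4 (VEGF receptor 3, of lymphatic and sinusoidal endothelium) had 15 to 30, and their fitted changes were 0.69 (SE 0.53) and 0.09 (SE 0.56). Of the ligand and co-receptor list, 5 of 7 were tested and 0 passed by edgeR or DESeq2, with 1 (Vegfc) at an unadjusted edgeR p under 0.05. Vegfa, the main ligand, was at 19.0 ± 0.711 CPM in EGFR-WT and 23.5 ± 1.60 in EGFR-DN, without overlap. Vegfc, a ligand of Flt4 and Kdr, was at 7.75 ± 1.12 against 3.84 ± 1.45 CPM, also without overlap, with a log2 fold change of −1.01 (SE 0.31).

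Plvap encodes the protein of the diaphragms that span endothelial fenestrae and caveolae. It was at 2.32, 2.58 and 2.37 CPM in EGFR-WT and at 3.00, 3.40 and 5.83 CPM in EGFR-DN replicates 1 to 3. All EGFR-DN libraries were above all EGFR-WT libraries, and replicate 3 was well above the others. The log2 fold change was 0.74 (SE 0.32, edgeR adjusted p = 0.690), and 0.40 (SE 0.23) without EGFR-DN replicate 3.

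The caveola list, whose products line the pits where Plvap sits in endothelium, was below 0 in most of its tested members. Of 5, 4 had a log2 fold change below 0, 3 with an unadjusted p under 0.05, and 0 passed by edgeR or DESeq2, with a median of −0.74. Cavin2 was at 130 ± 36.6 CPM in EGFR-WT and 74.9 ± 17.0 in EGFR-DN (log2 fold change −0.80, SE 0.27), and Cavin1 at 94.0 ± 15.9 against 53.0 ± 19.2 (−0.82, SE 0.29). Cavin3 was at 11.02 ± 2.37 against 6.62 ± 1.21 CPM (−0.74, SE 0.24). Cav1, the caveolin of endothelium, had 5 counts in EGFR-WT replicate 1 and 0 in the other 5 libraries. Cav2, another caveolin, was at 14.6 ± 0.576 CPM in EGFR-WT and 12.4 ± 5.06 in EGFR-DN (−0.23, SE 0.31). Ehd2, the 1 tested gene of the list above 0, was at 1.18 ± 0.249 against 2.10 ± 0.864 CPM (0.83, SE 0.40).

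Cdh5 and Stab2 were at the limit of detection. Cdh5 had 0, 0 and 1 counts in EGFR-WT replicates 1 to 3 and 4, 4 and 10 in EGFR-DN replicates 1 to 3. The EGFR-DN libraries lay above the EGFR-WT libraries, and the ratio of the summed levels was 19.0 with a 95% exact interval from 3.00 to 793 that covers counting error only. Without EGFR-DN replicate 3, which holds 10 of the 18 counts, the ratio was 10.9 (1.46 to 482). Fits that take in the spread between libraries did not call Cdh5 on all 6 libraries. Its adjusted p was 0.437 by DESeq2 and 0.726 by edgeR without a count filter. Stab2, a scavenger receptor for hyaluronan on sinusoidal endothelium, had 11, 11 and 0 counts in EGFR-WT and 7, 3 and 17 in EGFR-DN. The groups overlapped, and the ratio was 1.30 (95% exact interval 0.712 to 2.39). Without EGFR-DN replicate 3 it was below 1, at 0.617 (0.261 to 1.36). Of 6 other scavenger receptor genes, 4 were tested and 0 passed by edgeR, with 1 higher and 2 lower at an unadjusted p under 0.05. Cd36, a fatty acid and lipoprotein receptor, was at 2.37 ± 0.525 CPM in EGFR-WT and 0.711 ± 0.269 in EGFR-DN, without overlap, which passed by DESeq2 (adjusted p = 0.0390).

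Of 15 other genes of endothelium, 9 were tested and 0 passed by edgeR or DESeq2, with 2 lower at an unadjusted edgeR p under 0.05. The genes of the list differed widely. Gpihbp1 had 0 counts in all 6 libraries, Nos3 had 0 to 4 and Lyve1 0 to 11, whereas Sox18, an endothelial transcription factor, had 26 to 155, Rasip1 at least 19, Clec14a 32 to 117 and Cyyr1 198 to 346. Sox18 (3.65 ± 1.12 CPM in EGFR-WT, 1.86 ± 0.649 in EGFR-DN), Rasip1 (2.72 ± 0.904, 1.095 ± 0.281) and Clec14a (2.42 ± 1.13, 1.46 ± 0.278) were lower in EGFR-DN without overlap, and Cyyr1 overlapped. Sele, below the count filter, was higher without overlap, with 0 to 3 counts in EGFR-WT and 4 to 15 in EGFR-DN. Of all tested genes, 8.72% were lower and 9.21% higher without overlap. Cldn5, a tight junction protein of endothelium, had 148 counts in EGFR-WT replicate 1 and 14 to 56 elsewhere, and its log2 fold change of −1.04 (SE 0.87) turned to 0.41 without that library. Stab1, the relative of Stab2 from the scavenger receptor list, had 1 to 9 counts. The summed CPM of the list was 160 to 241 in EGFR-WT and 158 to 213 in EGFR-DN, most of it from Selp, the P-selectin gene that platelets and megakaryocytes also make, and Aqp1, a water channel.

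The 13 genes known from both endothelium and blood stem cells summed to 781 to 992 CPM in EGFR-WT and 672 to 1187 in EGFR-DN. Of these, 12 were tested and 0 passed by edgeR or DESeq2, with 1 higher and 2 lower at an unadjusted edgeR p under 0.05 and a median of −0.16. Pecam1, an adhesion molecule at endothelial junctions and on blood cells, was at 51.9 ± 4.37 CPM in EGFR-WT and 94.9 ± 42.0 in EGFR-DN, without overlap (log2 fold change 0.87, SE 0.30, and 0.44 without EGFR-DN replicate 3). The 2 lower genes were Esam and Procr, both without overlap. Esam was at 82.8 ± 8.20 against 50.3 ± 5.95 CPM (−0.72, SE 0.16). Procr was at 56.1 ± 16.7 against 23.5 ± 8.64 CPM (−1.25, SE 0.33). Mcam, below the count filter, had 0 counts in every EGFR-WT library and 2 to 8 in EGFR-DN. Among 9 cytoplasmic and membrane partners of endothelial junctions, all were tested, 3 were lower at an unadjusted p under 0.05 and 0 passed by edgeR or DESeq2.

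Lepr encodes the leptin receptor, which marks the perivascular stromal cells of marrow. It had 13, 58 and 7 counts in EGFR-WT replicates 1 to 3 and 15, 19 and 8 in EGFR-DN replicates 1 to 3. EGFR-WT replicate 2 was the highest, with a 95% exact Poisson interval of 44.04 to 74.98 counts, while the other 5 libraries had upper bounds of at most 29.7. Its log2 fold change was −0.70 (SE 0.68, edgeR adjusted p = 0.728), and it was 0.41 (SE 0.55) without that library. Leprot, the neighbouring gene whose product alters trafficking of the receptor, was at 76.3 ± 3.34 CPM in EGFR-WT and 56.6 ± 17.5 in EGFR-DN (log2 fold change −0.43, SE 0.24). The leptin gene Lep had 0 counts in all 6 libraries.

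Some other genes of stroma and bone were also highest in that library, and others were not. It was the highest library for 5 of 15 leptin receptor stroma genes with counts (EGFR-DN replicate 3 for 5), 2 of 15 fibrillar matrix genes (EGFR-DN replicate 3 for 4) and 1 of 8 osteoblast genes, and for 10.6% of all tested genes. Foxc1, a transcription factor of leptin receptor stroma, had 22 counts in EGFR-WT replicate 2 and 0 to 6 elsewhere. The matrix gene Tnc had 23 there and 0 to 6 elsewhere, and Dcn, the decorin gene, had 32 there and 0 to 8 elsewhere. Ibsp, the bone sialoprotein gene of osteoblasts, had 41 there and 0 to 8 elsewhere, and Prrx1, a limb mesenchyme factor, had 5 there and 0 elsewhere. EGFR-WT replicate 2 held 42.7% of the CPM of Lepr summed over the 6 libraries but 20.9% of that of Col1a2 and 19.4% of that of Gja1. Col1a1 was shared between EGFR-WT replicate 2 (31.2%) and EGFR-DN replicate 3 (32.0%), and Igfbp5, a gene of leptin receptor stroma, had 26.0% and 42.5% there. The part of stromal cells in the Lepr value was not tested. These genes were chosen for naming after their values were seen.

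**Figure D4:**
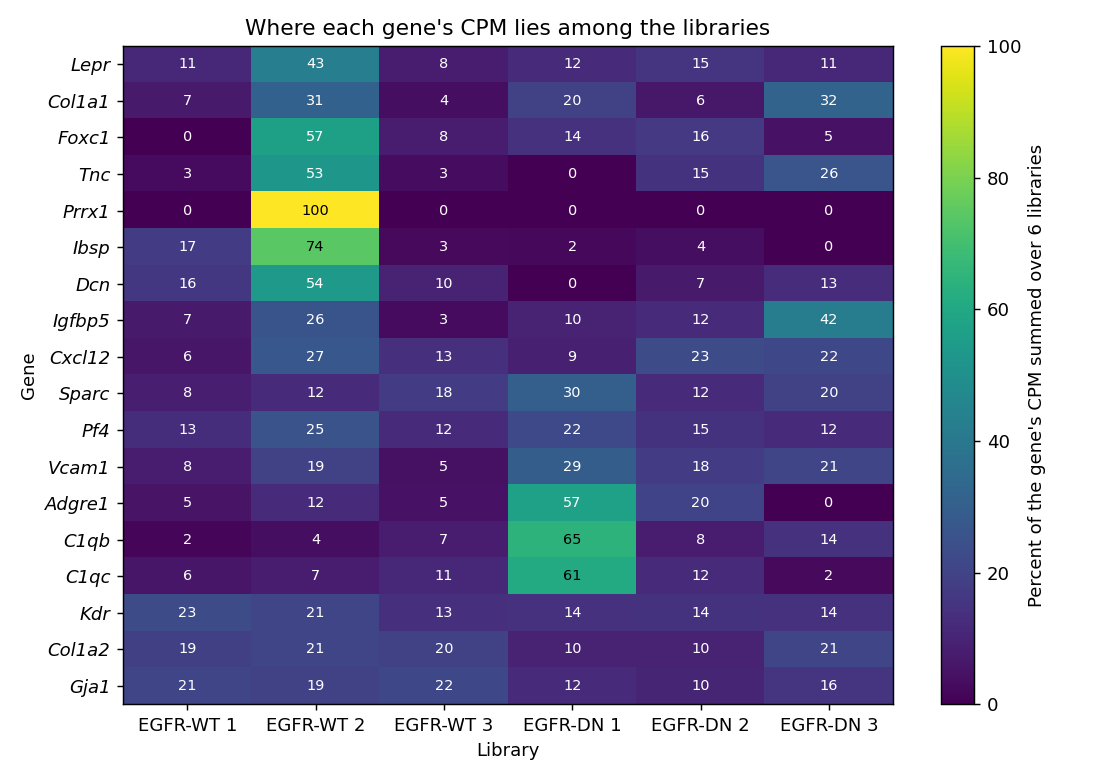
Percent of each gene's CPM, summed over the 6 libraries, that lies in each library. Lepr and 5 stromal or bone genes (Foxc1, Tnc, Prrx1, Ibsp and Dcn), chosen after their values were seen, peak in EGFR-WT replicate 2. Col1a1 and Igfbp5 peak in EGFR-DN replicate 3, and 3 macrophage genes, also chosen after their values were seen, in EGFR-DN replicate 1. Kdr, Col1a2 and Gja1 are spread over all libraries, with at most 22.9% in a library.

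Across all 16 other genes of leptin receptor stroma, 6 were tested and 0 passed by edgeR, with 1 higher and 1 lower at an unadjusted p under 0.05. The list summed to 45.8 to 59.1 CPM in EGFR-WT and 69.0 to 81.3 in EGFR-DN, and 10 of 16 stayed under 1 CPM in every library. Grem1, a defining marker, had 0 counts in all 6, and Kitl, which encodes stem cell factor, had 4 to 25. Cxcl12, the chemokine that holds stem cells in marrow, had 55 to 294 counts and was highest in EGFR-WT replicate 2. The largest part of the list's CPM came from Pdgfrb, a receptor for platelet-derived growth factor. Pdgfrb was at 26.9 ± 5.19 CPM in EGFR-WT and 55.2 ± 3.84 in EGFR-DN, without overlap. Its log2 fold change was 1.03 (SE 0.18), which missed the threshold by edgeR (adjusted p = 0.590) and passed by DESeq2 (adjusted p = 0.00501). Lpl, the next by mean CPM, went the other way, at 13.3 ± 3.95 against 7.01 ± 1.71 CPM without overlap (−0.93, SE 0.29). Of 9 osteoblast genes, 3 were tested and 0 passed by edgeR or DESeq2, with 0 at an unadjusted edgeR p under 0.05. The osteocalcin gene Bglap had 0 counts in all 6 libraries, and Runx2, which blood cells also make, was at 57.3 ± 6.54 CPM in EGFR-WT and 94.7 ± 52.4 in EGFR-DN.

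Sparc encodes a collagen-binding protein of bone matrix that is also stored in platelets. It had 8, 14 and 14 counts in EGFR-WT and 32, 13 and 12 in EGFR-DN replicates 1 to 3. EGFR-DN replicate 1 was the highest and the groups overlapped (log2 fold change 0.70, SE 0.52, edgeR adjusted p = 0.698), and the value was 0.30 without that library. The platelet gene Gp6 had 27 counts in EGFR-DN replicate 1 and 0 to 2 elsewhere, and Ppbp, a platelet chemokine gene, had 446 there and 48 to 172 elsewhere. Both were named after their values were seen. Of the 10 megakaryocyte and platelet genes, 3 were highest in EGFR-DN replicate 1, as were 14.1% of all tested genes, and 4 in EGFR-WT replicate 2. The most abundant, Itga2b and Pf4, were highest in EGFR-WT replicate 2, at 344 and 350 CPM, against 285 and 301 in EGFR-DN replicate 1. The 10 genes summed to 472 to 863 CPM in EGFR-WT and 574 to 721 in EGFR-DN, highest in EGFR-WT replicate 2. Their part in the Sparc value was not tested. Of 7 SPARC relatives, 3 were tested and 0 passed by edgeR, with 1 lower at an unadjusted p under 0.05. Fstl1, a secreted relative, was at 29.8 ± 7.82 CPM in EGFR-WT and 13.3 ± 3.74 in EGFR-DN, without overlap, which passed by DESeq2 (adjusted p = 0.0411) and not by edgeR (adjusted p = 0.690).

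Vcam1 encodes an adhesion molecule of stroma, endothelium and marrow macrophages that binds integrin alpha-4 beta-1 on blood cells. It had 22, 62 and 10 counts in EGFR-WT and 86, 54 and 35 in EGFR-DN, or 0.699, 1.65 and 0.394 CPM against 2.51, 1.53 and 1.77 CPM. EGFR-WT replicate 2 lay within the EGFR-DN range, so the groups overlapped. The log2 fold change was 1.06 (SE 0.55, edgeR adjusted p = 0.690), and it was 1.81 (SE 0.50) without EGFR-WT replicate 2 and 0.71 without EGFR-WT replicate 3.

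Of 12 marrow macrophage genes, 6 were highest in EGFR-DN replicate 1, the library with most Vcam1, as were 14.1% of all tested genes. EGFR-DN replicate 3 was the highest for 3 of the 12 and for 38.1% of all tested genes. EGFR-DN replicate 1 had 47 counts of Adgre1, the F4/80 gene, against 0 to 17 elsewhere, 47 of the complement gene C1qb against 1 to 6, and 45 of C1qc against 1 to 9. Adgre1, C1qb and C1qc were below the count filter and were named after their values were seen. The 12 marrow macrophage genes summed to 20.4 to 27.3 CPM in EGFR-WT and 26.7 to 40.5 in EGFR-DN, and 4 of them stayed under 1 CPM in every library, while Siglec1 had 0 counts in all EGFR-WT libraries. Of these, 5 were tested, 0 passed by edgeR or DESeq2 and 1 was higher at an unadjusted p under 0.05. The 5 tested genes did not share a pattern. Csf1r (17.9 CPM) and Slc40a1 (9.54) were highest in EGFR-DN replicate 1, whereas Mertk (0.321) and Axl (5.48) were lowest there. Spic was highest in EGFR-WT replicate 2 (3.46 CPM). The part of macrophages in the Vcam1 value was not tested.

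The receptor of VCAM1 was well represented. Itga4 (integrin alpha-4) was at 142 ± 6.53 CPM in EGFR-WT and 310 ± 212 in EGFR-DN, without overlap, and differed by 1.13 on the log2 scale (SE 0.44, edgeR adjusted p = 0.690). It was 0.40 (SE 0.07) without EGFR-DN replicate 3, the highest library. Itgb1 (integrin beta-1) was at 293 ± 16.6 against 233 ± 85.5 CPM (−0.33, SE 0.30). Of 7 genes of receptors and kin, 6 were tested and 3 were higher at an unadjusted p under 0.05. On all 6 libraries 0 passed by edgeR or DESeq2. Without EGFR-DN replicate 3, edgeR called Itgb7 (integrin beta-7) higher, and DESeq2 called Itgb7 and Itga4 higher. Of all genes, 0.231% and 2.61% were called higher in those 2 fits. Itgb7 was at 31.5 ± 5.08 CPM in EGFR-WT and 54.7 ± 21.1 in EGFR-DN, with overlap.

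Markers of other blood cells were measured beside these genes. The 12 stem cell genes had a median log2 fold change of −0.17, with 8 of 12 below 0. Of these, 0 passed by edgeR or DESeq2, and 2 were lower at an unadjusted edgeR p under 0.05. DESeq2 without EGFR-DN replicate 3, which called Gja1 and Col1a2 lower, also called 6 of these 12 lower (Ctnnal1, Fgd5, Gata2, Hlf, Meis1 and Myct1) and 6 of the 9 neutrophil granule genes higher. Of 9 neutrophil granule genes, 8 were tested and all 8 had a log2 fold change above 0, with a median of 1.497, 5 of them at an unadjusted edgeR p under 0.05 and 0 past the adjusted threshold. Their summed CPM was 403 to 584 in EGFR-WT and 896 to 1434 in EGFR-DN. Mpo (myeloperoxidase) was at 340 ± 84.5 against 854 ± 353 CPM, with an edgeR log2 fold change of 1.33 (SE 0.34), and passed by DESeq2, as did Cd36, Fstl1 and Pdgfrb among the listed genes. B and plasma cell genes summed to 318 CPM in EGFR-WT replicate 1 and to between 1047 and 3371 in the other 5 libraries. Most of that sum was Jchain, at 284 CPM in EGFR-WT replicate 1 and 3313 in EGFR-DN replicate 2. Of these genes, 5 were tested and all 5 had a log2 fold change above 0, with a median of 0.85. At an unadjusted edgeR p under 0.05, 2 were higher, and 0 passed by edgeR or DESeq2. The part of these cell markers in the values of Gja1, Col1a2 and Plvap was not tested.

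The genes whose log2 CPM followed each tested gene most closely over the 6 libraries were picked from 11119 or 11120 genes, so a high correlation is a description only, and the points share depth and the rRNA-rich library. Gja1 was followed most closely by Dusp6, an ERK phosphatase (r = 0.994), Cop1 (0.993) and St3gal2 (0.988). Col1a2 was followed by Ighg2c, an immunoglobulin constant region (0.995), Tuft1 (0.985) and Galnt4 (0.978). Kdr was followed by Tbc1d32 (0.985), Fyn (0.984) and Gvin-ps4 (0.981), and Plvap by Pitpna (0.996), Fanca (0.996) and Calr (0.9955). Among the scarce genes the closest were Gstz1 for Lepr (0.975), Elac2 for Col1a1 (0.977), Kif3b for Sparc (0.974) and Dync2i2 for Vcam1 (0.982).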

How the data were processed

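For 6 libraries the authors' deposited table gives 1 estimated count per gene symbol, not scaled between libraries, and 79.4% of the values are whole numbers. Per the labels' protocols, 10 ng of RNA was primed with oligo(dT) and read as single reads of 75 bases. Build mm39, DRAGEN, R 4.3.1 and DESeq2 1.40.2 appear without roles in the submitters' processing notes. Annotation and strand setting: not given in the sources used here. Reads of overlapping genes may be mixed.

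Counts were rounded, filtered with filterByExpr (minimum count 10), scaled by TMM and tested two-sided with edgeR 4.0.16 in R 4.3.3 (quasi-likelihood, Benjamini-Hochberg, threshold 0.05). The SE is the size of the log2 fold change over the square root of F. DESeq2 1.42.0 and limma 3.58.1 (voom) were alternatives, beside other scalings and filters, removal of rRNA-like genes, the replicate number as a block, and each library left out. DESeq2 without EGFR-DN replicate 3 was added after seeing the data. Calls given for a list are on all 6 libraries unless a library is said to be left out. No pair of libraries was a duplicate (smallest chi-square per degree of freedom 16.3). The table held 0 columns of other samples and 0 unnamed rows.

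Transcript lengths came from GENCODE M21 (GRCm38), and promoters from RefSeq (GRCm38.p6). Intervals cover counting error only. The genes and lists were chosen with earlier results of these data known. Named were all 10 genes, direct partners and up to 5 of the most abundant genes of a list. List genes past the threshold on all 6 libraries and the 3 most alike genes were named too. Other genes were named after their values were seen.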

Additional observations from a re-analysis of the deposited data

How the results depend on the processing

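Of the tested genes among the 10, 0 were called on all 6 libraries under each scaling, filter and tool tried, and 0 to 2 when a library was left out. The 2, Col1a2 and Gja1, were called without EGFR-DN replicate 3, by edgeR and by DESeq2. Over all genes the count went from 1 to 99 with DESeq2, to 0 with limma-voom and to 845 with DESeq2 without EGFR-DN replicate 3, and leaving out 1 library gave 0 to 57. Among the other listed genes it went from 0 to 4 with DESeq2 and to 30 with DESeq2 without EGFR-DN replicate 3. With 1 library left out it lay between 0 and 3. The 3, Camp, Ctsg and Itgb7, were called higher by edgeR without EGFR-DN replicate 3. The cause was not tested. With 1 library left out, the log2 fold change ranged from −1.08 to 0.41 for Lepr, from −0.17 to 1.75 for Col1a1, from −1.58 to 0.41 for Cldn5 and from −0.64 to 0.39 for Flt4. Without EGFR-DN replicate 3, DESeq2 gave −0.13 for Col1a1 and −0.64 for Flt4. Flt4 also turned to −0.10 with library size alone and −0.16 with limma-voom. Alternatives were tallied for the 8 tested genes and for only part of the other named genes. Of these 338 log2 fold changes, 310 kept their direction and side of the threshold, 17 newly passed and 11 changed sign.

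With the replicate number as a block, 0 of the 10 genes, 1 gene in all and 0 other listed genes passed, and Flt4 had a log2 fold change of −0.063 with that block. Deviations from the group means of same-numbered libraries correlated at −0.02, 0.05 and 0.06, and not every library correlated best with its own number. With so few libraries these values cannot settle whether the numbers pair them. Cdh5 and Stab2 were at or below 17 counts in every library, and depth limits what can be said of them. The filter of at least 50 counts in 3 libraries left 5 of the 10 genes to test.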
